A study of Gossypium hirsutum with 6 samples.

Results

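Arginine decarboxylase (ADC) removes the carboxyl group of L-arginine and gives agmatine, the first step of the plant route to putrescine (Put). Agmatine deiminase and N-carbamoylputrescine amidase then turn agmatine into Put, whereas ornithine decarboxylase makes Put from ornithine in a single step. Arabidopsis lacks a known ornithine decarboxylase and makes Put through ADC alone, and spermidine and spermine are built on Put in all plants. The 7 genes described here are the members of a fixed list of loci whose annotation reads arginine decarboxylase, out of 100562 genes in the deposited count table of upland cotton (*Gossypium hirsutum*). Of these 7 genes, 6 had enough counts to be tested between the conditions.

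RNA was sequenced from wild-type ovules of cultivar ZM24. After 2 d of culture there were 3 samples grown with 10 μmol/L Put and 3 grown with water as the control (CK). Ovules were taken on the day of anthesis and kept in the dark in vitro, and collected ovules were divided at random into replicates, so the spread between replicates may be partly technical. A sample holds the whole ovule with its young fibers, so fewer cells of a type and less RNA per cell cannot be told apart. The deposited counts summed to between 16974557 and 18454734 in the Put samples and between 19131678 and 19463059 in the CK samples. The detection limit of 3 counts was equal to between 0.165 and 0.179 CPM, the count scaled to library size, in Put and between 0.153 and 0.156 CPM in CK. The 4 genes for AGL11, a MADS-box factor of ovule identity, averaged between 82.8 and 142 FPKM in Put and between 77.2 and 120 FPKM in CK. They come from a list of 66 ovule and seed coat genes, of whose 35 tested genes 10 were called higher and 14 lower. Summed FPKM of 57 leaf genes for chlorophyll-binding proteins and the small subunit of Rubisco were between 157 and 162 in Put and between 192 and 195 in CK. The summed FPKM of 104 fiber genes, which include expansins and E6, were between 17140 and 17200 in Put and between 7896 and 7998 in CK, although of its 64 tested genes 21 were called higher and 26 lower. Of 37 tested leaf genes 1 was higher and 13 were lower, and the part of these shifts in the results below was not tested.

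The listed ADC genes form 3 pairs of A- and D-subgenome copies and a gene without a listed partner. LOC107893794 lies on chromosome A13 from 43897889 to 43900871 on the plus strand, and LOC107919776 lies on D13 from 24131397 to 24134327 on the minus strand. The curated protein that the files list for both is Arabidopsis ADC2 (entry O23141), the chloroplast enzyme of that species, and the RefSeq gene table gives ADC1 as a synonym of the D13 gene. LOC107927929 on A03 (112258086 to 112260810, minus strand) and LOC121214859 on D02 (70869452 to 70872188, minus strand) share the entry Q39827, another plant ADC. They were treated as a pair because of that entry, although their chromosome numbers differ. LOC107949089 on A04 (86287118 to 86289872, plus strand) lists a further plant entry, O82475. All coordinates are those of Gossypium_hirsutum_v2.1.

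These 5 genes carry a pyridoxal-binding domain and a C-terminal sheet domain, the usual make-up of plant ADC. Their exonic length is between 2725 and 2983 bp and equals the span of the gene, except on D13, where it falls short by 2 bp. LOC107907525 on A05 (264707 to 267566, minus strand) and LOC107907383 on D05 (166010 to 168746, minus strand) are different genes. They list Orn/Lys/Arg decarboxylase domains, a family best known from bacteria, and a *Bacillus* ADC as the closest entry (P21885). Their spans exceed their exonic lengths by 536 and 499 bp, so both gene models hold intron sequence. Whether this pair of proteins acts on arginine in cotton is not given by the annotation. The counting program and its treatment of reads that match both copies are not given in the sources used here, so counts of copies in a pair could have been exchanged.

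The pair on chromosome 13 made up most of the ADC transcript in cultured ovules. Per length, LOC107893794 averaged 76.2 ± 0.572 FPKM in Put and 104 ± 2.17 FPKM in CK (SD, n = 3 each), and LOC107919776 averaged 61.5 ± 1.10 FPKM in Put and 80.8 ± 1.47 FPKM in CK. By mean FPKM over all samples they ranked 713 and 1060 among 54810 protein-coding genes with at least 1 count. LOC107927929 followed with 10.4 ± 0.806 FPKM in Put and 10.7 ± 0.874 FPKM in CK, and LOC121214859 with 6.72 ± 0.417 FPKM in Put and 8.53 ± 0.448 FPKM in CK. The pair of the bacterial type stood lower still, at 4.67 ± 0.626 FPKM in Put and 5.71 ± 0.204 FPKM in CK for LOC107907525, and at 4.48 ± 0.580 FPKM in Put and 5.48 ± 0.343 FPKM in CK for LOC107907383. The order of these 2 neighbours cannot be told, because their samples overlapped in both conditions. All other neighbours in the order kept apart in every sample of a condition. The chromosome 13 pair held between 82.8% and 85.0% of the summed ADC FPKM in Put and between 85.7% and 86.1% in CK, whereas the A05/D05 pair held between 5.00% and 6.05% in Put and between 4.95% and 5.53% in CK.

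**Figure D1:**
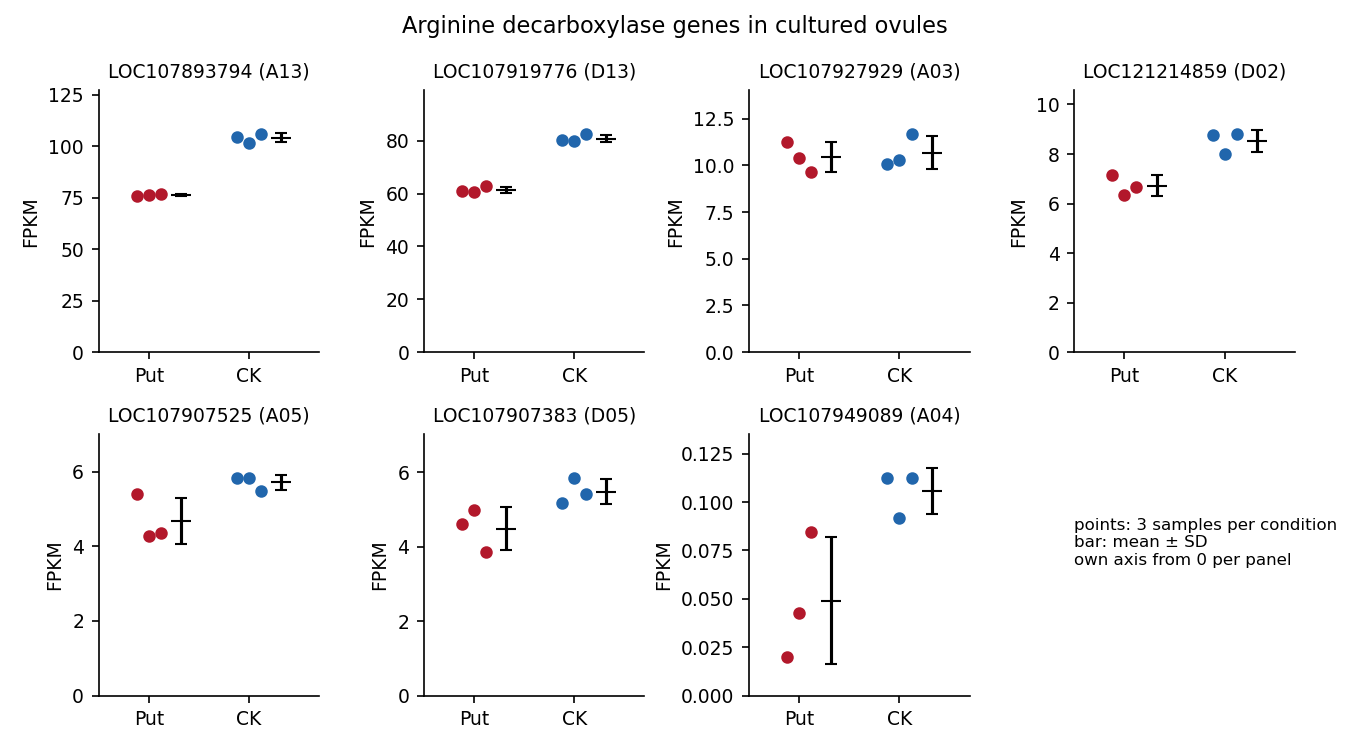
FPKM, a level per gene length and adjusted library size, of the 7 ADC genes in the 3 Put and 3 CK samples, with the mean ± SD beside the points and an axis from 0 of its own in each panel. The Put samples lie below all CK samples in every panel but that of LOC107927929 on A03, where the conditions overlap.

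To see how added Put, the end product of the route, went with transcripts of its first enzyme, edgeR's quasi-likelihood test was run on the Put and CK counts of 51764 genes, with Benjamini-Hochberg adjustment. Log2 fold changes are given as Put over CK. Of the 6 tested ADC genes, 5 passed an adjusted p under 0.05 as lower in Put and 0 as higher. Among all tested genes 18.2% were lower and 18.4% were higher (36.6% in all), and among the 21693 genes with a mean CPM of at least that of the lowest tested ADC gene 29.2% were lower. The median log2 fold change of the 6 genes was -0.31, against 8.8e-04 over all tested genes. Without overlap between conditions, 5 of the 6 genes were below CK in every Put sample, and so were 22.6% of all tested genes. Only 3 of the 5 calls held with DESeq2, with limma on FPKM, with offsets for gene length and at an adjusted p under 0.01, and the others were those of the A05/D05 pair. These settings called 13.9% of all tested genes lower with DESeq2, 15.4% and 15.3% with limma at pseudocounts of 1 and 0.1, 16.4% with the length offsets and 13.4% at the stricter threshold.

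LOC107893794 on A13, the most abundant ADC gene, was read at 228, 228 and 231 CPM in the Put samples and at 314, 305 and 317 CPM in the CK samples. The Put samples lay close together and far below all CK samples. Its log2 fold change was -0.45 (standard error 0.03, edgeR adjusted p = 3.37e-21), a level 26.6% lower with Put. The coefficient of variation between replicates was 0.760% in Put and 2.01% in CK, where counting alone would give 1.59% and 1.29%. LOC107919776 on D13 had 180.5, 178.7 and 185.1 CPM in Put and 237, 235 and 243 CPM in CK, again without overlap. It fell by 0.39 on the log2 scale (standard error 0.03, edgeR adjusted p = 2.13e-17), or by 23.8%. With each replicate left out in turn, the log2 fold change stayed between -0.46 and -0.43 for the A13 gene and between -0.41 and -0.38 for the D13 gene.

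In the pair with entry Q39827, only the D02 copy was called lower. LOC121214859 on D02 had 19.8, 17.5 and 18.4 CPM in Put and 24.1, 22.1 and 24.2 CPM in CK, so every Put sample was below every CK sample. Its log2 fold change was -0.34 (standard error 0.08, edgeR adjusted p = 3.44e-04), which is 20.9% lower with Put. LOC107927929 on A03 had 30.9, 28.6 and 26.4 CPM in Put and 27.6, 28.2 and 31.96 CPM in CK. Here the highest Put sample stood above 2 of the 3 CK samples, and the log2 fold change was -0.03 (95% interval from -0.17 to 0.11, edgeR adjusted p = 0.781). The interval leaves room for a decrease of the size of 0.17 but not for that of the D02 copy. Its sign was positive with offsets that follow gene length, without Put replicate 3 and without CK replicate 3, at no more than 0.04.

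For the genes of the bacterial type, the calls depended on single libraries. LOC107907525 on A05 had 12.6, 9.997 and 10.2 CPM in Put and 13.6, 13.7 and 12.8 CPM in CK, and the first Put sample was close to the lowest CK sample. Its log2 fold change was -0.28 (standard error 0.10, edgeR adjusted p = 0.0256), which is 17.8% lower. The call was lost without Put replicate 2 (-0.22, adjusted p = 0.135), without Put replicate 3 (-0.23, adjusted p = 0.116), without CK replicate 1 (-0.27, adjusted p = 0.0723) and without CK replicate 2 (-0.26, adjusted p = 0.0780) in edgeR. LOC107907383 on D05 had 10.4, 11.2 and 8.68 CPM in Put and 11.7, 13.2 and 12.2 CPM in CK, with the highest Put sample just under the lowest CK sample. Its log2 fold change was -0.29 (standard error 0.11, edgeR adjusted p = 0.0290), which is 18.2% lower. This call was lost without Put replicate 3 (-0.19, adjusted p = 0.204), without CK replicate 2 (-0.24, adjusted p = 0.135) and without CK replicate 3 (-0.30, adjusted p = 0.0519) in edgeR. Without Put replicate 3 or CK replicate 2, the number of ADC genes called lower was therefore 3. LOC107907383 shares 47 bp with LOC107907381 on the opposite strand, a gene for a U-box protein, which had between 3 and 6 counts in Put and between 6 and 7 in CK. No other ADC gene overlaps an annotated gene, and the nearest neighbour of LOC107907525 is 139 bp away.

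**Figure D2:**
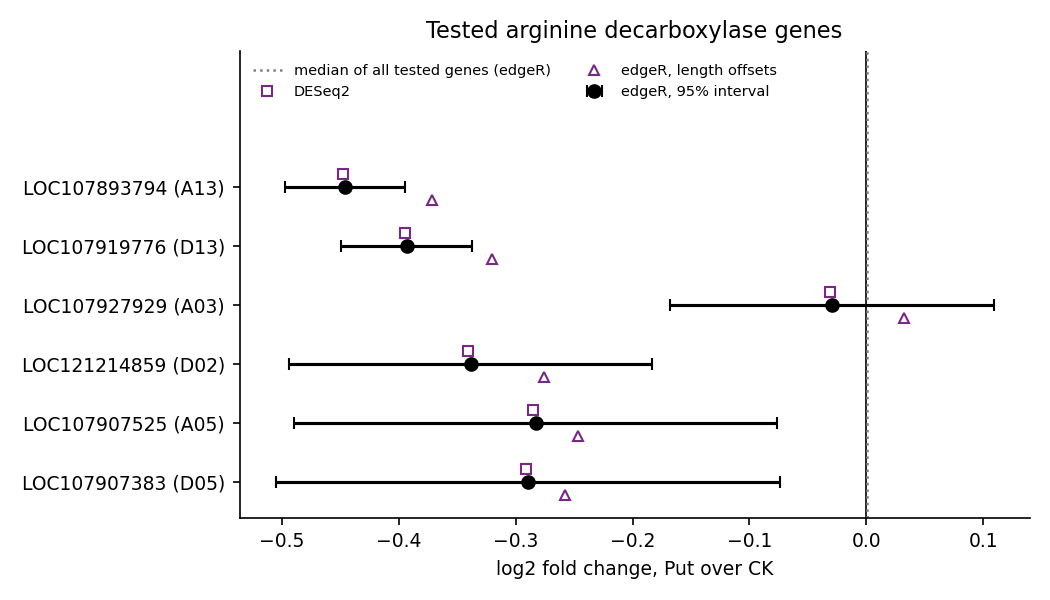
Log2 fold change of Put over CK for the 6 tested ADC genes, with edgeR's 95% interval (filled points), DESeq2's estimate (squares) and edgeR with offsets that follow gene length (triangles); the dotted line is the median of all tested genes. Only the interval of LOC107927929 on A03 spans 0, and every triangle lies to the right of its filled point.

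Fold changes were also read against genes of like length. The 8545 tested genes with an exonic length between 2238 and 2983 bp, the range of the 6 ADC genes, had a median log2 fold change of -0.05, and 22.2% of them were called lower. With the length offsets, the log2 fold change was -0.37 for LOC107893794, -0.32 for LOC107919776 and -0.28 for LOC121214859, and these 3 genes were still called. It was -0.25 for LOC107907525 (edgeR adjusted p = 0.0587) and -0.26 for LOC107907383 (edgeR adjusted p = 0.0582). The median of the 6 genes was then -0.27.

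LOC107949089 on A04 was at the limit of detection. It had 1, 2 and 4 counts in the Put samples and 6, 5 and 6 counts in the CK samples, so no sample overlapped, but 2 of the Put samples were under the count of 3. The summed counts were 7 in Put and 17 in CK, a ratio of 0.460 after scaling for library size (exact 95% interval from 0.161 to 1.17, counting error only). When genes with few counts were kept in the model, the log2 fold change was -1.08 (standard error 0.84, edgeR adjusted p = 0.377), and it ran from -0.70 without Put replicate 1 to -1.69 without Put replicate 3. A difference was thus not detectable at this depth. Chromosome D04 carries a gene with the same entry O82475, LOC107898579 (55142047 to 55144774), which is described as arginine decarboxylase-like but is not on the list. It had 5, 2 and 0 counts in Put and 2, 1 and 0 in CK. Of 3 pseudogenes near these loci, LOC107898577 on D04 had 3 counts in Put and 8 in CK in all, and LOC107948090 and LOC107898317 were at 0 in every sample. The ADC loci of both chromosomes 4 were thus nearly silent in both conditions. The paper's GhADC2, reported there as raised by qRT-PCR during fiber elongation, has an identifier that names chromosome A04. That qRT-PCR compared plant tissues and days after anthesis without added Put, whereas the counts here are of cultured ovules. The 2 measures are therefore not of like samples. Which of the genes here GhADC2 matches was not tested.

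The balance between subgenome copies was compared as the share of the A copy in the counts of each pair. In the A13/D13 pair it was 55.8%, 56.1% and 55.5% in Put and 57.0%, 56.5% and 56.6% in CK. The A copy led in all samples, and here every Put sample was below every CK sample. The shift was small, at -0.90 percentage points (exact permutation test, two-sided p = 0.1, adjusted p = 0.15 over 3 pairs). The log2 fold change of the A13 gene minus that of the D13 gene was -0.05 (standard error 0.04, errors taken as independent). In the A03/D02 pair the share was 61.0%, 62.0% and 59.0% in Put and 53.3%, 56.1% and 56.9% in CK. Every Put sample was above every CK sample, with a difference of 5.22 points (exact permutation test, two-sided p = 0.1, adjusted p = 0.15). With 3 samples against 3 the test cannot give a p under 0.1. The log2 fold change of the A03 gene exceeded that of the D02 gene by 0.31, with a standard error of 0.10 when the errors of both genes are taken as independent. In the A05/D05 pair the share was 52.0% ± 4.30 in Put and 52.0% ± 1.60 in CK (SD, n = 3 each), and the samples overlapped (exact permutation test, two-sided p = 1.0). The A05 and D05 copies were thus read about equally, with a difference between their log2 fold changes of 0.007 (standard error 0.15).

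**Figure D3:**
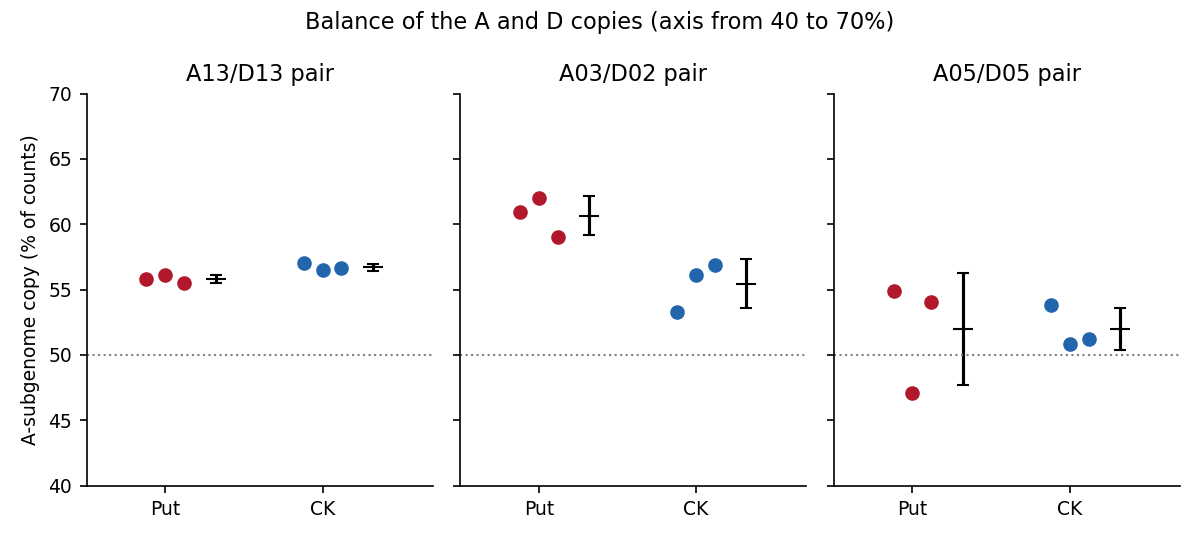
Share of the A-subgenome copy in the summed counts of each ADC pair (percent, axis from 40 to 70), per sample, with the mean ± SD for Put and CK and a dotted line at 50%. The Put samples of the A03/D02 pair lie between 59.0% and 62.0%, above its CK samples at 53.3% to 56.9%.

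The summed FPKM of the 7 ADC genes were 165, 163 and 164 in Put and 215, 211 and 220 in CK. This total was 23.8% lower with Put, at 164 ± 1.34 in Put and 215 ± 4.22 in CK (SD, n = 3 each). LOC107893794 alone accounted for 54.2% of the difference and LOC107919776 for 37.8%, and the other 5 genes shared the rest. The 3 genes described as ornithine decarboxylase, the enzyme of the other route to Put, summed to between 4.07 and 4.64 FPKM in Put and between 4.08 and 5.30 in CK. ADC transcripts per length therefore exceeded those of ornithine decarboxylase between 35.4- and 39.9-fold in Put and between 39.9- and 52.6-fold in CK. This ratio counts all 7 genes, also the A05/D05 pair, whose action on arginine is not given by the annotation. Without that pair the ADC sum was between 153 and 156 FPKM in Put and between 200 and 209 in CK. Nearly all ornithine decarboxylase counts came from LOC107888839 on A11, with a log2 fold change of -0.07 (standard error 0.14, edgeR adjusted p = 0.724).

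The other steps of the pathway held genes called in either direction. Of 76 tested genes in 11 lists of polyamine and arginine metabolism, 18 were higher and 15 lower with Put. That is 43.4% called in either direction, against 36.6% of all tested genes, which were not matched for level. Glutamate decarboxylase, which acts on glutamate, is among these lists, with 75.0% of its tested genes called. Downstream of ADC, both agmatine deiminase genes were called, in opposite directions. LOC107953355 on D07 averaged 33.2 ± 0.337 FPKM in Put and 18.04 ± 1.31 FPKM in CK (log2 fold change 0.88), and LOC107926587 on A07, which was named after its values were seen, had a log2 fold change of -0.74. Of 3 N-carbamoylputrescine amidase genes, 1 was higher and 0 were lower. It was LOC107889178, with 15.02, 12.67 and 11.98 FPKM in Put and 10.9, 11.1 and 11.3 FPKM in CK (log2 fold change 0.26, edgeR adjusted p = 0.0225), and the call was lost with DESeq2, with offsets that follow gene length, without Put replicate 1 (0.15) and without CK replicate 1 (0.24).

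For the counts per list, the shares over all tested genes were 18.2% lower and 18.4% higher, and no list was tested against them. Upstream, 2 of 6 genes that build arginine from ornithine were lower and 0 were higher. The more abundant was the argininosuccinate synthase gene LOC107941042, at 21.7 ± 0.881 FPKM in Put and 26.0 ± 0.956 FPKM in CK (log2 fold change -0.25). The arginase gene, whose enzyme cleaves arginine to ornithine, was not called (log2 fold change -0.06, edgeR adjusted p = 0.545). Of 17 cationic amino acid transporters, which can carry arginine, 5 were higher and 3 lower, and LOC107938512 had 25.9 ± 0.936 FPKM in Put and 9.64 ± 0.484 FPKM in CK (log2 fold change 1.43). Of 8 tested synthases that add aminopropyl groups, 1 was higher, the thermospermine synthase LOC107901009 (log2 fold change 0.30, edgeR adjusted p = 0.0478), and this call was lost in 11 of 15 alternatives. Without Put replicate 2 or 3 it was 0.25 or 0.26, and without CK replicate 2 or 3 it was 0.33 or 0.22.

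Of 7 genes for S-adenosylmethionine decarboxylase, which supplies the aminopropyl groups, 1 was higher and 3 were lower, among them LOC107887408 (log2 fold change -0.12) and LOC107893852 (log2 fold change -0.45). Of the genes for breakdown, 0 polyamine oxidases were higher and 2 of 11 were lower, a share of 18.2% that equals that of all tested genes, with LOC107932214 at a log2 fold change of -1.40. The 12 primary amine oxidases, which oxidise Put, included 4 higher and 3 lower genes, the lower ones among them LOC107886210 (log2 fold change -0.29) and LOC107895118 (log2 fold change -1.69). The higher ones, named after their values were seen, were LOC121214757, LOC107927763, LOC107927764 and LOC107909722, at log2 fold changes of 0.92, 0.90, 0.74 and 0.36. The largest list median was that of glutamate decarboxylase, the enzyme that makes γ-aminobutyric acid from glutamate, at 0.81 over 8 genes, of which 5 were higher and 1 was lower. Its gene LOC107946304 had 119 ± 2.61 FPKM in Put and 44.2 ± 1.57 FPKM in CK (log2 fold change 1.43), and LOC107937128 had a log2 fold change of 1.84. Of the 12 lists, ADC genes included, that of ADC had the lowest median.

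**Figure D4:**
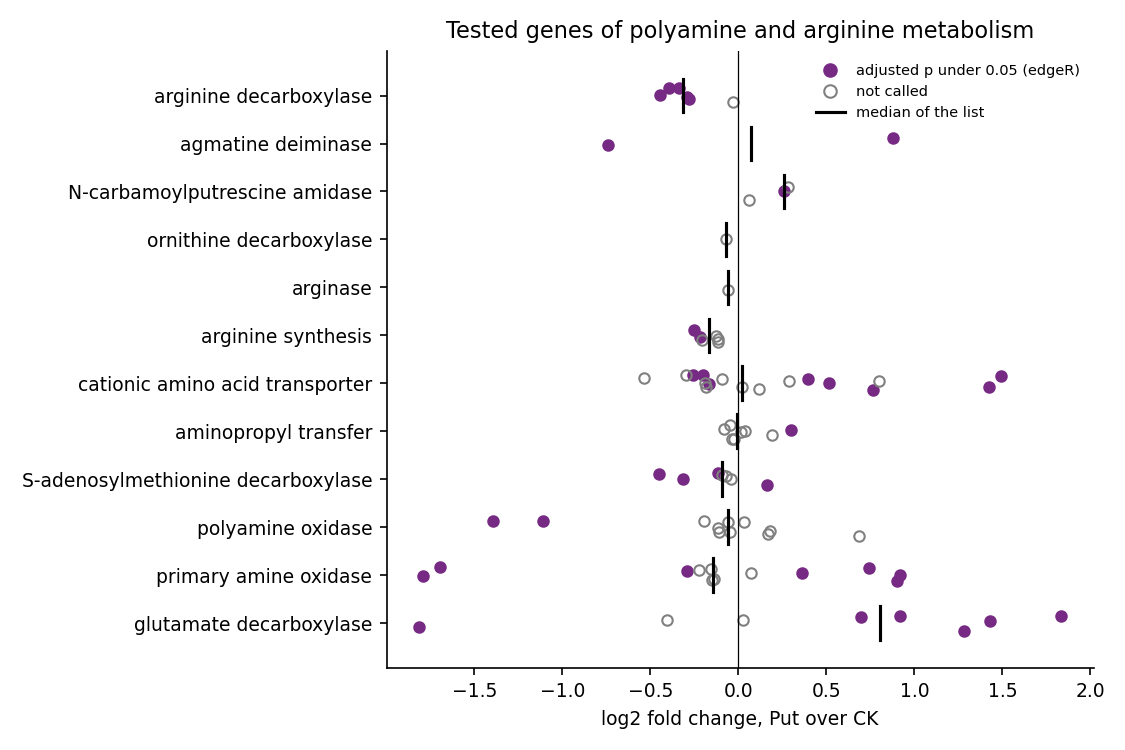
Log2 fold change of Put over CK for each tested gene of ADC and of 11 lists of polyamine and arginine metabolism; filled points passed an adjusted p under 0.05 in edgeR, open points did not, and black bars are list medians. The ADC genes lie between -0.45 and -0.03, and the agmatine deiminase genes lie on both sides of 0.

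The genes whose log2 CPM followed that of LOC107893794 most closely over the 6 samples were LOC107911580, a BRM-type chromatin remodelling helicase (Pearson r = 0.9996), LOC107957517, a topless-related protein (r = 0.9995), and LOC107910471, for GIGANTEA, a clock protein (r = 0.9995). These values are a description, since the samples share only 2 conditions and 594 of 51763 genes reached an r of at least 0.99. The log2 fold changes of LOC107911580, LOC107957517 and LOC107910471 were -0.54, -0.31 and -0.38, and with the length offsets they were -0.31, -0.19 and -0.25. LOC107919776 on D13 was at rank 52 by this measure (r = 0.998), LOC121214859 on D02 at r = 0.941 and LOC107927929 on A03 at r = 0.178. The members on A05 and D05 reached r = 0.773 and 0.738.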

How the data were processed

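RNA-seq counts and FPKM of 3 Put and 3 CK samples were used. The authors deposited raw counts per gene of the Gossypium_hirsutum_v2.1 annotation, without normalization, and FPKM, which scale by gene length and an adjusted library size. For LOC107893794 the log2 fold change was -0.4475 with limma on log2(FPKM + 0.1) and -0.4474 with edgeR's RLE size factors. It was -0.4706 with edgeR on the library size alone. The FPKM thus follow an adjusted scaling, and the limma fits do not check the scaling. The submitters' processing notes name CASAVA and HISAT2 2.0.5. The counting program and the use of strand are not given in the sources used here. Chromosome names came from the RefSeq gene table, which held 99450 of the gene identifiers. Put and CK counts were compared by edgeR 4.0.16 under R 4.3.3 (filterByExpr, TMM, quasi-likelihood test, Benjamini-Hochberg adjustment). Standard errors were derived from its F statistic. The alternatives were DESeq2 1.42.0, limma 3.58.1 on log2(FPKM + 1) or log2(FPKM + 0.1) where FPKM averaged 0.5 or more, other scalings and filters, length offsets, a replicate block and leaving out each sample. The tests were also run on simulated counts, and no result here rests on that run. Between libraries of a condition, the variance was between 1.72 and 1.85 times the counting noise, so no library was merely another one sequenced again. These values cannot tell whether libraries were made from the same RNA or pool of ovules.

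The members and lists were chosen with earlier results of these data known. Pathway genes were taken by gene description, and from each list the called gene with the highest FPKM and that with the largest absolute log2 fold change at a mean of at least 1 CPM were named. LOC107888839, LOC107926587, the higher primary amine oxidase genes, the genes that overlap or resemble a member and AGL11 were named outside this rule. The A03/D02 pair and the comparisons with genes of like level or length were added after the data were seen. Markers of xylem and pollen were also summed. The xylem list had between 253 and 261 FPKM in Put and between 201 and 210 in CK, with 6 of 28 tested genes higher and 10 lower, the pollen list between 42.7 and 46.5 in Put and between 33.8 and 34.5 in CK, and the ovule list between 2415 and 2463 in Put and between 2442 and 2476 in CK. No column of another sample was present.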

Additional observations from a re-analysis of the deposited data

How the results depend on the processing

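All results of the ADC genes on A13, D13 and D02 kept their direction and call under every alternative run, and LOC107927929 was called under none, nor was LOC107949089 in the 10 that kept it. The number of ADC genes called lower was 3 with DESeq2, with both limma fits, with length offsets and at an adjusted p under 0.01, and between 3 and 5 without a replicate. The log2 fold change of LOC107907525 was not past the threshold with DESeq2 (-0.29), limma on log2(FPKM + 1) (-0.25) or log2(FPKM + 0.1) (-0.29) and length offsets (-0.25), and was between -0.40 and -0.22 without a replicate. That of LOC107907383 was not past it with DESeq2 (-0.29), limma (-0.25 and -0.29) and length offsets (-0.26), and was between -0.37 and -0.19 without a replicate. Limma and length offsets change the input, and the cause of the lost calls was not tested. With the replicate number as a block, 5 ADC genes and 18661 of all genes were called, and of 22 fold changes only the call of LOC107901009 was lost. Deviations of same-numbered Put and CK samples correlated at -0.005, -0.009 and -0.013, so no shift common to them was seen over all tested genes. The labels do not say whether same-numbered samples belong together, and these values cannot settle it. Over all alternatives without a replicate, between 16839 and 17055 genes were called, and DESeq2 called 14646. Genes with few counts, such as LOC107949089, were limited by depth.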
